A study of Rattus norvegicus with 15 samples.

Results

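In rat whole blood, 7 circular RNAs (circRNAs) were followed from sham to 3 d in a model of deep venous thrombosis, in which a clot forms in a deep vein. The 7, out of 43472 in the table, were selected on their measured levels: they were listed in sham or 1 h blood and mostly at 0 at 1 or more later times. The levels are therefore given as a description, and no test is used to support them. Each is known only by its running number, from CBT15_circR_1664 to CBT15_circR_39077, which the file pairs with no host gene, coordinate or sequence.

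The rats were Sprague-Dawley males, of a commonly used outbred strain, aged 6 to 8 weeks. Sham blood is labelled 0 h, and blood of the modelled rats was drawn at 1 h, 6 h, 12 h or 3 d (72 h). Each of these 5 groups has 3 libraries, and the labels give no genotype or drug. Neither the way the thrombosis and the sham were made nor whether 3 libraries mean 3 rats is stated, so SDs may reflect technical spread. Sample titles start with a prefix whose meaning the labels do not give. For the 9 libraries of sham, 1 h and 3 d the prefix ends in A&B, and for the 6 from 6 h and 12 h it ends in C.

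A circRNA forms when a splice donor joins an acceptor that lies upstream of it, which closes the exon or exons between them into a loop. The loop has no free ends, so the exonucleases that trim linear transcripts do not degrade it, and circRNAs are known to be long-lived. Blood platelets and red cells, which have no nucleus and make no new transcripts, are known to be rich in them. The only reads that tell a loop from its linear transcript are those that cross the back-splice, and these are what the table counts. In whole blood, fewer cells that carry a circRNA and less of it in each cell cannot be told apart. Markers of blood cell types could not be set beside these values, because no row carries a gene name.

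Levels are in SRPBM, back-spliced reads per 1e9 mapped reads of the library. The values of a library were spaced in equal steps, which gave the reads behind each of them. Mapped reads per library ran from 66.0 to 92.4 M (M for 1e6). No value above 0 stood for fewer than 2 reads, which corresponds to 21.6 to 30.3 SRPBM, and a value of 0 is given as listed at 0 and not as absence. A pair of libraries stood apart from the rest. Sham replicate 2 listed 2958 circRNAs and 1 h replicate 1 listed 2551, against 9354 to 15366 in the other 13. Both are called low-detection libraries below, and sham and 1 h means of the 7, with the ratios made from them, are also given without them.

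The 7 circRNAs were moderately abundant where they were listed. Of their 105 values, 60 were above 0, at 5 to 188 reads with a median of 29.5, and 45 were at 0. None of the 60 lay under 5 reads, whereas 26.8% of the listed values of the other circRNAs above 0 in at least 3 libraries did, where the median was 8 reads. Within their own libraries the listed values lay between the 45.3 and the 98.1 percentile of all circRNAs listed there.

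Zeros were most frequent at 3 d. In sham 6 of the 7 were listed in all 3 libraries and none was at 0 in all 3. At 1 h 3 were listed in all 3 libraries and 1 was at 0 throughout. At 6 h none was listed throughout and none lost throughout. At 12 h 3 were listed in all 3 libraries and 2 were at 0, and at 3 d 1 was listed in all 3 libraries and 5 were at 0. Summed over the 7 circRNAs and the 3 libraries, sham held 946 back-spliced reads, 1 h 937, 6 h 274, 12 h 301 and 3 d 67. These are raw reads, not scaled to depth, and the sham and 1 h sums include the low-detection libraries. Sham replicate 2 held the most sham reads of each of the 7. CBT15_circR_23689 alone held 405 of the 1 h reads.

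**Figure D1:**
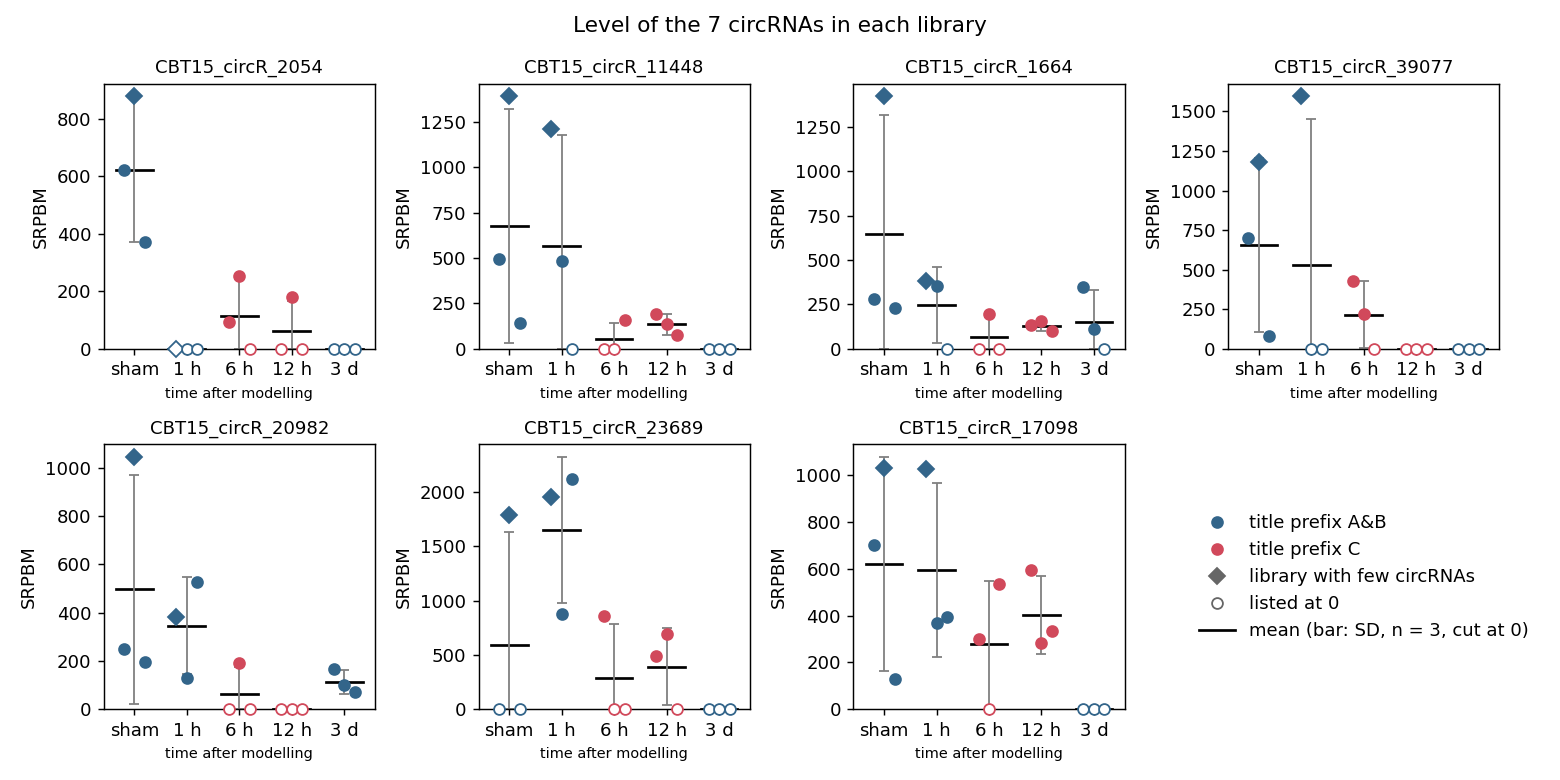
Level in SRPBM (linear axis) of each of the 7 circRNAs in the 15 libraries, by group; points are libraries, open points are listed at 0, diamonds are the low-detection libraries, lines are means and bars SD (n = 3, cut at 0). Sham replicate 2 is the highest sham library in all 7 panels, and 5 of the 7 circRNAs are at 0 in all 3 libraries at 3 d.

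CBT15_circR_2054 was a sham circRNA that was at 0 by 1 h. Its level was 621, 878 and 371 SRPBM in sham replicates 1, 2 and 3, on 55, 58 and 32 reads. None of the 1 h libraries listed it. At 6 h it was listed again in replicate 1 at 91.9 SRPBM and in replicate 2 at 253 SRPBM, and was at 0 in replicate 3. At 12 h replicate 2 alone listed it, at 181 SRPBM, and at 3 d it was at 0 in all 3 libraries. The lowest sham library stood above every later library. The sham mean was 623 ± 254 SRPBM (SD, n = 3), 5.41-fold that at 6 h (115 ± 128) and 10.3-fold that at 12 h (60.4 ± 105). No fold is given against 1 h or 3 d, where it was listed at 0. In the order sham, 6 h, 12 h and then 1 h and 3 d, only sham was clear of the group next to it; the later groups overlapped. Without sham replicate 2 the sham mean was 496 ± 176 SRPBM (n = 2) and the ratios were 4.31 and 8.21, and 1 h was at 0 in the 2 libraries left without the low-detection one. It was listed in 3 of 9 A&B libraries and 3 of 6 C libraries. All its A&B listings were sham, so its loss at 1 h and again at 3 d came within prefix A&B, and its partial return came within C.

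CBT15_circR_39077 was lost by 12 h, after an uneven course at 1 h and 6 h. Sham replicates 1, 2 and 3 held 699.5, 1181 and 81.2 SRPBM. At 1 h it was listed in replicate 1 alone, at 1596 SRPBM on 117 reads, its highest value. At 6 h it lay at 425 and 217 SRPBM in replicates 1 and 2 and at 0 in replicate 3, and at 12 h and 3 d it was at 0 in all 6 libraries. Group means were 654 ± 551 SRPBM for sham, 532 ± 921 for 1 h and 214 ± 213 for 6 h (SD, n = 3 each), and each group overlapped the next in this order. The 1 h listing rested on the low-detection library: without it, both 1 h libraries left were at 0, so that the 1 h mean was below that of 6 h. The sham mean without sham replicate 2 was 390 ± 437 SRPBM (n = 2). The final loss held on either side of the title prefixes, at 12 h (C) and at 3 d (A&B), and it was listed in 4 of 9 A&B and 2 of 6 C libraries.

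CBT15_circR_17098 was present until 12 h and lost at 3 d. Sham libraries held 699.5, 1029.6 and 128 SRPBM, and 1 h libraries 1023, 368 and 394 SRPBM. It then lay at 299, 0 and 536 SRPBM at 6 h and at 593, 283 and 336 SRPBM at 12 h. Every 3 d library had it at 0. Means before 3 d were 619 ± 456 SRPBM for sham, 595 ± 371 for 1 h, 404 ± 166 for 12 h and 278 ± 269 for 6 h (SD, n = 3 each), and neighbours in this order overlapped. Without the low-detection libraries the sham mean was 414 ± 404 SRPBM and the 1 h mean 381 ± 18.6 SRPBM (n = 2 each). The 12 h mean was then 1.06-fold that of 1 h, against 0.679-fold with all libraries. The sole library at 0 before 3 d was 6 h replicate 2. It was listed in 6 of 9 A&B and 5 of 6 C libraries, and all 3 of its A&B zeros were at 3 d, so its loss followed the time and not the prefix.

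CBT15_circR_11448 had the same end point with a gap at 6 h. Sham libraries held 496, 1393 and 139 SRPBM of it, and 1 h libraries 1214, 486 and 0 SRPBM. At 6 h it was at 0 in replicates 1 and 2 and at 158 SRPBM in replicate 3, and at 12 h it was listed in all 3 libraries at 190.1, 136 and 75.8 SRPBM. All 3 libraries at 3 d were at 0. The 12 h libraries, on 17, 12 and 7 reads, lay near sham replicate 3 and below the other sham libraries. Means were 676 ± 646 SRPBM for sham, 567 ± 611 for 1 h, 134 ± 57.2 for 12 h and 52.8 ± 91.4 for 6 h (SD, n = 3 each), and neighbours in this order overlapped. The sham mean was 5.05-fold that at 12 h, and 2.37-fold without sham replicate 2, whose omission left 318 ± 253 SRPBM (n = 2). At 1 h the mean of the other 2 libraries was 243 ± 344 SRPBM. It was listed in 5 of 9 A&B and 4 of 6 C libraries. CBT15_circR_11448 and CBT15_circR_17098 shared their state, listed or at 0, in 13 of 15 libraries.

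CBT15_circR_20982 was the one whose loss followed the title prefix. It was listed in all 9 A&B libraries and in 1 of 6 C libraries. Sham libraries held 248, 1045 and 197 SRPBM, and 1 h libraries 382, 131 and 529 SRPBM. At 6 h replicate 2 alone listed it, at 193 SRPBM on 16 reads, and at 12 h all 3 libraries were at 0. It returned at 3 d at 167, 100.3 and 72.1 SRPBM, on 14, 9 and 5 reads. The 3 d libraries all lay below the lowest sham library, and the sham mean of 497 ± 475 SRPBM was 4.39-fold the 3 d mean of 113 ± 48.8 (SD, n = 3 each). Without sham replicate 2 that ratio was 1.97, from a sham mean of 223 ± 36.1 (n = 2). The 1 h mean, 347 ± 202 SRPBM, was 0.699-fold that of sham with all libraries and, at 329.9 ± 282 SRPBM (n = 2), 1.48-fold without the low-detection ones, so the order of sham and 1 h turned. Neighbours in the order sham, 1 h, 3 d, 6 h and 12 h overlapped. Of the 917 circRNAs listed in all 9 A&B libraries, 886 were listed in all 6 C libraries too, and CBT15_circR_20982 was the 1 circRNA (0.109%) listed in at most 1 of them. It was picked for zeros at later times, so its place there is a description. Both low-detection libraries are among the 9, which limits the 917, and the count without them was not made. The 6 h and 12 h libraries all carry prefix C and no other group does, so for this circRNA the prefix and the time from 6 h to 12 h cannot be told apart.

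CBT15_circR_23689 differed from the others in its highest group, 1 h. It was at 0 in sham replicates 1 and 3 and at 1787 SRPBM in sham replicate 2, the low-detection library. At 1 h all 3 libraries listed it, at 1951, 878 and 2117 SRPBM on 143, 74 and 188 reads. It then lay at 862, 0 and 0 SRPBM at 6 h, at 492, 691 and 0 SRPBM at 12 h, and at 0 in all 3 libraries at 3 d. Every 1 h library stood above every later library. The 1 h mean of 1648 ± 672 SRPBM was 5.74-fold that at 6 h (287 ± 497) and 4.18-fold that at 12 h (394 ± 356; SD, n = 3 each). The 1 h libraries overlapped sham through replicate 2 (sham mean 596 ± 1032), and without it both sham libraries were at 0 while the 1 h mean of the other 2 libraries was 1497 ± 876, 5.21-fold that at 6 h and 3.80-fold that at 12 h. In the order of means 1 h, sham, 12 h, 6 h and 3 d, neighbours overlapped. Where it was listed it was never faint: its 7 listed values ran from 44 to 188 reads, and it reached the 91.6 percentile or above in each of these libraries. It was listed in 4 of 9 A&B and 3 of 6 C libraries, with zeros under both prefixes.

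CBT15_circR_1664 was listed in at least 1 library of every group. Sham libraries held 282, 1423 and 232 SRPBM, and 1 h libraries 382, 356 and 0 SRPBM. At 6 h it lay at 0, 193 and 0 SRPBM, at 12 h at 134, 159 and 97.4 SRPBM, and at 3 d at 346, 111 and 0 SRPBM. All 6 h and 12 h libraries lay below the lowest sham library, while 3 d replicate 1 lay above 2 of the 3 sham libraries. The sham mean was 646 ± 674 SRPBM, 4.97-fold that at 12 h (130.1 ± 30.8) and 4.23-fold that at 3 d (153 ± 177; SD, n = 3 each). Most of this came from sham replicate 2: without it the sham mean was 257 ± 35.4 SRPBM (n = 2), and the ratios were 1.98 and 1.68. Means at 1 h and 6 h were 246 ± 213 and 64.4 ± 111 SRPBM, with 178 ± 252 at 1 h (n = 2) without replicate 1, and neighbours in the order sham, 1 h, 3 d, 12 h and 6 h overlapped. Its 4 zeros were in 1 h replicate 3, 6 h replicates 1 and 3 and 3 d replicate 3, so they followed neither the prefix nor a single time; it was listed in 7 of 9 A&B and 4 of 6 C libraries.

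**Figure D2:**
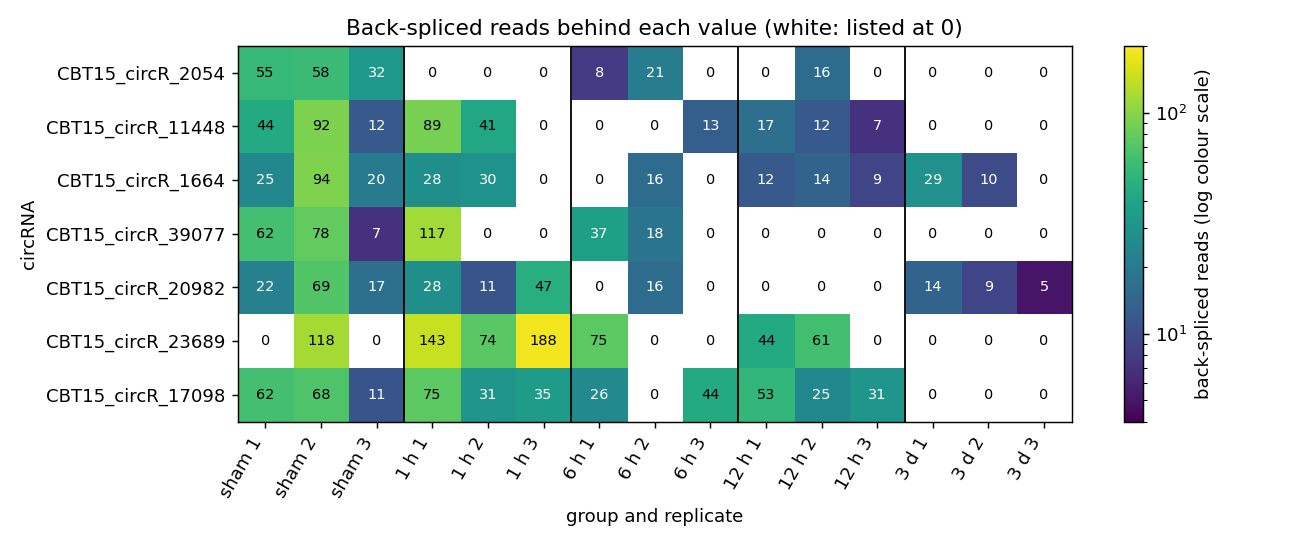
Back-spliced reads behind each value, with circRNAs as rows, the 15 libraries as columns in time order and a logarithmic colour scale; white cells are listed at 0. Listed cells hold 5 to 188 reads, and the 3 d columns hold values for CBT15_circR_1664 and CBT15_circR_20982 alone.

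The low-detection libraries held the highest levels. In all 7 circRNAs sham replicate 2 was the highest of the sham libraries, while 47.0% of the 1776 circRNAs listed in all 3 sham libraries were highest there. CBT15_circR_23689 is not among the 1776, since that library alone listed it in sham. Of the 6 listed at 1 h, 4 were highest in 1 h replicate 1. CBT15_circR_39077 was listed at 1 h in that library alone, and CBT15_circR_11448 and CBT15_circR_1664 were at 0 in 1 h replicate 3. Of the 3 listed in all 3 libraries at 1 h, CBT15_circR_17098 alone was highest in replicate 1. Among the 1748 circRNAs listed in all 3 libraries at 1 h, 16.1% were highest in that library. The 7 were listed in 13 of their 14 values in the low-detection libraries, and 6 of the 7 had their highest SRPBM of all in either of them. Among the other circRNAs above 0 in at least 3 libraries, 6.69% did. Most of those others were at 0 in each low-detection library, and a circRNA at 0 in a library cannot be highest there. The 7 were selected as listed in sham or 1 h blood, the groups these libraries belong to. Their count is therefore not read against this share. The median listed circRNA stood at 242 SRPBM in sham replicate 2 and 136 SRPBM in 1 h replicate 1, against 64.9 to 86.6 SRPBM in the other 13. The part of this in the fall from sham was not tested. CBT15_circR_2054, CBT15_circR_11448, CBT15_circR_39077 and CBT15_circR_17098 were listed in both other sham libraries as well and at 0 in all 3 libraries at 3 d.

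For their read depth the 7 were listed at 0 often. Classes were made from the median number of reads in the libraries that list a circRNA, among circRNAs above 0 in at least 3 libraries, which limits how many zeros a circRNA can have. Of the 7, 4 had a median of 16 to under 32 reads (CBT15_circR_20982, CBT15_circR_11448, CBT15_circR_1664 and CBT15_circR_2054). They were at 0 in 24 of 60 values, against 14.4% of values for the 1239 other circRNAs of the class. In the class of 32 to under 64 reads CBT15_circR_17098 and CBT15_circR_39077 were at 0 in 13 of 30 values, against 8.45% for 620 others. CBT15_circR_23689, in the class of 64 to under 128 reads, was at 0 in 8 of 15 values, against 4.24% for 329 others. Among the others, zeros were commonest in sham and at 1 h (26.6% and 25.0% in the lowest of these classes) and rarer at 6 h, 12 h and 3 d (5.86%, 5.92% and 8.39%); sham and 1 h each hold a low-detection library. The 4 circRNAs ran the other way, with 0 of 12 values at 0 in sham and 7 of 12 at 3 d. Zeros chose these circRNAs, so the contrast describes them and supports nothing further. Of the others, 11.6%, 5.16% and 2.74% in the 3 classes were listed in 11 or fewer libraries, as all 7 were.

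**Figure D3:**
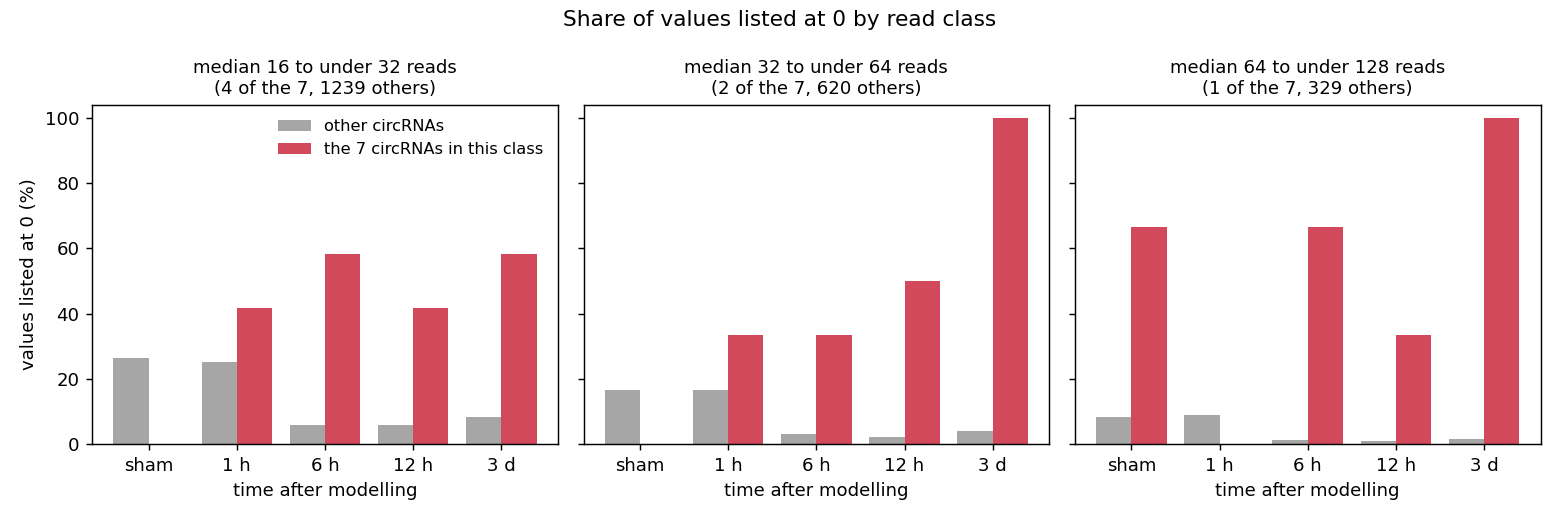
Share of values listed at 0 (%) by group in 3 classes of median listed reads, for the 7 circRNAs (red) and the other circRNAs of the class (grey). The grey bars are highest in sham and at 1 h, whereas both circRNAs of the middle class reach 100% at 3 d (6 of 6 values).

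The full switch from listed to 0 was rare among circRNAs listed in all 3 libraries of sham or of 1 h, a condition that includes a low-detection library. Of the 1776 circRNAs listed in all 3 sham libraries, 15 (0.845%) were at 0 in all 3 of the 1 h libraries. For the 6 h, 12 h and 3 d libraries the numbers were 18 (1.01%), 15 (0.845%) and 34 (1.91%). Of the 7, 6 were among the 1776, and 1, 0, 2 and 4 of these were among those at 0 at the respective time. Of the 1748 listed in all 3 libraries at 1 h, 37 (2.12%) were at 0 in all 3 at 3 d, CBT15_circR_23689 and CBT15_circR_17098 among them, and 24 (1.37%) at 12 h, CBT15_circR_20982 among them. Since the 7 were picked for this switch, their counts are not read against these shares. The comparisons with sham share the 3 sham libraries. Without the low-detection libraries the lists from sham to 1 h, 6 h, 12 h and 3 d held 406, 285, 270 and 454 circRNAs. That from 1 h to 3 d held 966. Their shares were not computed.

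Those of the 7 at 0 in a whole later group were ranked by level for 4 switches: from sham to 1 h, 12 h and 3 d, and from 1 h to 3 d. The 7 were selected on their levels, which favoured high ranks in advance, so the ranks are a description and support nothing further. Of the 34 circRNAs that went from listed in sham to 0 at 3 d, CBT15_circR_11448, CBT15_circR_39077, CBT15_circR_2054 and CBT15_circR_17098 ranked 1 to 4 by sham mean, at 676, 654, 623 and 619 SRPBM. The highest of the other 30 stood at 338 SRPBM and their median at 111 SRPBM, while the median of all 1776 was 366 SRPBM. With sham replicate 2 left out of the means, the same 4 circRNAs ranked 1 to 4 in another order, CBT15_circR_2054 at 496, CBT15_circR_17098 at 414, CBT15_circR_39077 at 390.4 and CBT15_circR_11448 at 318 SRPBM, and the highest of the other 30 stood at 136 SRPBM. Here and for the other switches a low-detection library was left out of the means alone, and the lists stayed as made with all libraries. The 3 d list would hold 454 circRNAs without sham replicate 2, and ranks in it were not computed. CBT15_circR_2054 ranked first of 15 at 1 h, where the next stood at 411 SRPBM, or at 246 SRPBM against 496 without that library. CBT15_circR_39077 and CBT15_circR_20982 ranked 1 and 2 of 15 at 12 h, at 654 and 497 SRPBM, above 257 SRPBM for the next. Without sham replicate 2 they kept these ranks at 390.4 and 223 SRPBM, above 125 SRPBM. CBT15_circR_23689 and CBT15_circR_17098 ranked 1 and 2 of the 37 that went from listed at 1 h to 0 at 3 d, at 1648 and 595 SRPBM, with the next at 439 SRPBM. Without 1 h replicate 1, CBT15_circR_23689 stayed first at 1497 SRPBM, while CBT15_circR_17098, at 381 SRPBM, ranked 4, and the highest of the others stood at 542 SRPBM.

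**Figure D4:**
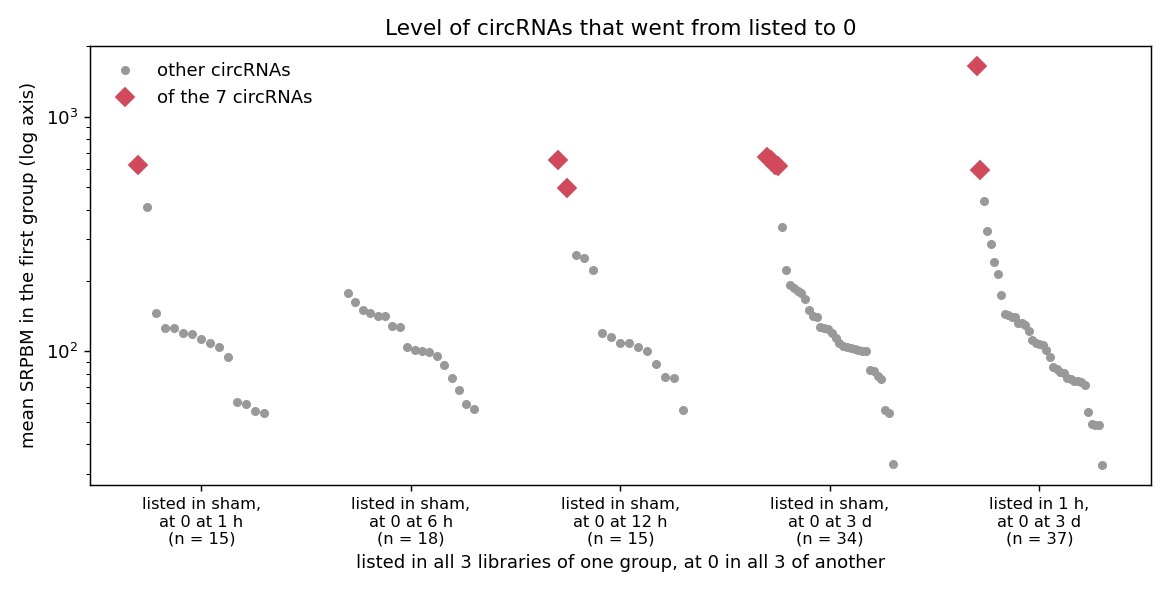
Mean SRPBM in the first group (log axis) of every circRNA listed in all 3 libraries of that group and at 0 in all 3 of a second group, for 5 pairs of groups; red diamonds are of the 7 circRNAs, grey points the others. With all libraries in the means the diamonds lie at the top of 4 of the pairs, and none of the 7 is among the 18 circRNAs lost at 6 h. The 7 were selected on their levels, so the place of the diamonds is a description.

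Returns were counted in the same way. Of the 4483 circRNAs listed in all 3 libraries at 3 d, 53 (1.18%) were at 0 in all 3 at 12 h, and CBT15_circR_20982 was among them. In the other direction, 252 of the 5668 circRNAs listed in all 3 libraries at 12 h (4.45%) were at 0 in all 3 at 3 d, CBT15_circR_11448 and CBT15_circR_17098 among them. Counting circRNAs whose sham libraries all lay above all libraries of a later time, 1 of the 7 did so at 1 h (0.555% of 16767 circRNAs above 0 in at least 3 libraries), 3 at 6 h (0.59%), 4 at 12 h (0.573%) and 5 at 3 d (0.883%). For 1 h over 3 d the count was 2 of the 7 (1.39%). The 7 were picked on these levels, so their counts are not read against these shares.

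A limma fit over the 16767 circRNAs called 2 circRNAs lower at 1 h than in sham (0.0119%), 0 at 6 h (0%), 0 at 12 h (0%), 4 at 3 d (0.0239%) and 3 lower at 3 d than at 1 h (0.0179%), at a Benjamini-Hochberg adjusted p under 0.05. At 6 h and 12 h, where it called 0, limma gave 139 and 133 an unadjusted p under 0.05 in the lower direction. The 7 gave 1 of the calls at 1 h, 3 of those at 3 d and 2 of those for 3 d against 1 h. These contrasts chose the 7, so the counts are no test of them and nothing is read from them. With any 1 library of the compared groups left out, the 7 gave 0 to 1 calls at 1 h, 0 at 6 h, 0 to 2 at 12 h, 0 to 4 at 3 d and 1 to 3 for 3 d against 1 h.

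No other circRNA in the table had the listed or 0 pattern of any of the 7 over all 15 libraries. By Pearson's r of log2(SRPBM + 23.2) over the 15 libraries, the circRNA most like CBT15_circR_17098 was CBT15_circR_25658 (r = 0.78), which shared its state in 14 of 15 libraries but averaged 68.4 SRPBM against 379 SRPBM. The circRNA most like CBT15_circR_2054 was CBT15_circR_5150 (r = 0.83, same state in 13 libraries), and that most like CBT15_circR_39077 was CBT15_circR_5300 (r = 0.76, same state in 12). CBT15_circR_5150 was listed in 4 libraries and CBT15_circR_5300 in 7. The nearest circRNAs to the other 4 did not switch off: they were listed in all 15 libraries. These were CBT15_circR_38576 for CBT15_circR_11448 (r = 0.83), CBT15_circR_8618 for CBT15_circR_1664 (r = 0.79), CBT15_circR_36016 for CBT15_circR_20982 (r = 0.80) and CBT15_circR_36846 for CBT15_circR_23689 (r = 0.82). CBT15_circR_36016, for example, ran from 134 to 814 SRPBM, and CBT15_circR_38576 from 66.9 to 666 SRPBM. These are the highest values among 16767 circRNAs over 15 libraries that share depth and detection, and are given as a description.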

How the data were processed

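One deposited table, with 43472 rows and 15 libraries as columns, holds a signal in SRPBM as normalized by the authors; per the file's name the circRNAs are from find_circ. Bowtie 0.12.2 and Rnor_6.0, a rat genome build, are named in the submitters' processing notes. Calling thresholds and strand handling were not given in the sources used. Libraries were made from total RNA of PAXgene blood and sequenced as 150 bp pairs, per the labels' protocols.

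In each library 100% of values above 0 were whole multiples (within 0.01) of 1 step, with 2 as the smallest multiple, taken as reads; dividing 1e9 by this step gave the mapped reads. No 2 libraries held identical values (0 pairs). PCR copies are not independent molecules. Since only values from 2 reads up are listed, no limit was set for a 0, and no count test was run.

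The 7 circRNAs were taken by name. They, and the lists used, were chosen with earlier results of these data known. Group values are means ± SD over libraries, and groups overlap where the ranges of their libraries do. Whole-table fits used limma 3.58.1 in R 4.3.3 with a trend, on log2(SRPBM + 23.2), with 5 groups and circRNAs above 0 in at least 3 libraries; the pseudocount is the median over libraries of the smallest value above 0. Simulated data with known changes at 1 h against sham were used to test the code. Zeros added there fell at random over libraries, with no low-detection library among them. How well limma does on the present libraries was therefore not tested. For each of the 7, the circRNA with the highest Pearson's r over the 15 libraries was named. Alternatives were other pseudocounts, filters and scalings, no trend, a replicate block, only the groups compared, a minimum of 5 reads and leaving out each library. Leaving out the low-detection libraries, together or from the sham and 1 h means, was chosen after seeing the data.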

Additional observations from a re-analysis of the deposited data

How the results depend on the processing

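With values counted as listed from 5 reads up, each of the 7 circRNAs was listed in as many libraries as before, and the numbers of circRNAs going from listed in sham to 0 at 1 h, 6 h, 12 h and 3 d, and from listed at 1 h to 0 at 3 d, were 14, 17, 12, 37 and 27. These numbers depend on every library, because fewer libraries make the condition easier to meet: with 1 library left out they ran from 19 to 385, 30 to 285, 25 to 270, 50 to 454 and 59 to 966, the highest without sham replicate 2 or, for the last, 1 h replicate 1. Without both low-detection libraries they were 406, 285, 270, 454 and 966. The numbers of circRNAs that limma called lower, in the same order of comparisons, were 2, 0, 0, 4 and 3. They were 0, 0, 0, 0 and 0 with a pseudocount of 1 SRPBM, without the trend and when only circRNAs above 0 in 8 or more libraries were tested. With 10 times the pseudocount they were 1, 1, 2, 1 and 5, with no filter 6, 0, 2, 3 and 5, scaled to total circRNA signal 3, 0, 3, 5 and 22, and with median-ratio scaling 1, 0, 0, 3 and 2. A fit of only the groups compared called 1, 0, 0, 1 and 1, and leaving out both low-detection libraries 4, 2, 0, 2 and 56. With 1 library left out limma called 0 to 3, 0 to 1, 0 to 2, 0 to 5 and 1 to 6. Where it called 0, between 29 and 315 circRNAs had an unadjusted p under 0.05 in the lower direction. The cause was not tested. With the replicate number as a block limma called 2, 0, 2, 5 and 5. No pairing by number was seen in the deviations from group means. They correlated at -0.18 to 0.12 for the 30 pairs of libraries with the same number (median 0.0054). For the 60 pairs with other numbers the range was -0.24 to 0.32 (median -0.0060). Of 15 libraries, 5 correlated best with their own number. This does not settle whether the numbers pair the libraries.

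Of 505 recomputed log2 differences of the 7 circRNAs, 475 stayed within 1 SD of the reported difference and 30 did not. Of the 30, 13 were with the smaller pseudocount, 12 with the larger one and 5 scaled to total circRNA signal. The SD used was the larger of those of the log2 values in the 2 groups, up to 3.63, which is a wide limit. Some alternatives could not move a difference. The other filters, the replicate block and the fit of only the groups compared left each at its reported value. Leaving out a library of a group at 0 throughout also changed nothing. The 475 include all of these, so the count does not measure stability. None of the called differences changed sign, which was fixed in advance: each was of a circRNA at 0 in all 3 libraries of the later group. Some that were not called did change sign: CBT15_circR_23689 at 6 h against sham ran from -2.10 to 1.75. Depth limits what a 0 shows: a level under 21.6 to 30.3 SRPBM would not be listed.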
